A study of Mus musculus with 14 samples.

Results

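The comparison was between lupus-prone and control mice in naive CD4 T cells. It used 7 of the 14 libraries of the series, chosen by title: the 3 TC and the 4 B6 libraries named Tn, each from a different mouse, with every gene symbol of the count table. Of 26683 symbols, 13427 had enough counts over the 14 libraries to be tested. B6 were C57BL/6J mice. TC were B6.NZM-Sle1NZM2410/AegSle2NZM2410/AegSle3NZM2410/Aeg/LmoJ congenic mice, which hold in a B6 genome the NZM2410 intervals Sle1, Sle2 and Sle3, on chromosomes 1, 4 and 7, that confer susceptibility to lupus. All mice were females of 8 months, and the labels name no treatment. Tn were spleen cells sorted as CD4+CD44-. The series also holds Tfh (CD4+CD44+CD162lo/-PD-1+) libraries of the same mice, 4 of B6 and 3 of TC. They enter here through the filter for tested genes, the normalization and a shared estimate of spread. They also enter where the strain difference in Tn is set against that in Tfh.

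Several features limit the groups as a model. The Tn gate did not exclude regulatory T cells. RNA was extracted from the spleen of each individual mouse, so replicates are mice and p-values measure the spread between mice. The disease state of each mouse is not in the labels, and the protocol speaks of WT and KO although the strains are B6 and TC. The source field of these samples reads follicular helper cells, whereas their titles and cell type name naive cells, and the titles were followed. Sequencing batch is not in the labels, so a batch that followed the strain could not be told apart from the strain.

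Naive CD4 T cells circulate through spleen and lymph nodes in a small, quiescent state. They rely on survival signals through interleukin 7 and weak receptor contact, keep translation and glycolysis low, and raise both when antigen is met. In TC mice CD4 T cells are known to become activated with age and to help autoantibody production.

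The 7 libraries held 16285700 to 20191558 counts. Levels are given as CPM, counts scaled to a library total of 1e6, and as means ± SD over 4 B6 and 3 TC libraries. Fold changes, their log2 values (TC minus B6, with standard error, SE) and p-values come from edgeR's quasi-likelihood test with Benjamini-Hochberg adjustment over the 13427 genes, and a gene was called at an adjusted p below 0.05. The identity of the sort held in both strains. Cd4, encoding the co-receptor, was at 1117, 1155, 1213 and 1202 CPM in B6 and 1174, 1206 and 1157 CPM in TC, and the groups overlapped (adjusted p = 0.771). The naive markers Ccr7, Lef1, Tcf7, Klf2, S1pr1 and Il7r were expressed in every library, the lowest value being 342 CPM for Klf2. PD-1 transcript, Pdcd1, was low, 7.97 ± 1.72 CPM in B6 and 5.54 ± 1.30 in TC, against 688 ± 73.6 and 494 ± 91.3 in Tfh. Cd44, used for the gate, was 26.2, 27.1, 21.03 and 27.2 CPM in B6 and 17.4, 21.4 and 18.1 CPM in TC, and is no finding between the groups.

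Strain was the main axis of variation in these cells. The first principal component of the 7 libraries held 68.1% of the variance and parted the 4 B6 from the 3 TC libraries, and the second held 8.12%. Of the 13427 genes tested, 6982 differed between TC and B6 (52.0%), 3477 of them higher in TC (25.9%) and 3505 lower (26.1%). Some tested genes were kept through Tfh counts. With only the Tn libraries, 11922 genes were tested, 3670 called higher and 3443 lower. The median log2 fold change over all genes was −0.01. Most differences were small: 1071 genes were called and differed more than 2-fold (7.98%), 787 higher in TC (5.86%) and 284 lower (2.12%). The libraries of the strains did not overlap for 7382 genes (55.0%), 3975 higher in TC (29.6%) and 3407 lower (25.4%). With so wide a background, the counts of the gene lists below are read against 25.9% called higher and 26.1% called lower.

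**Figure D1:**
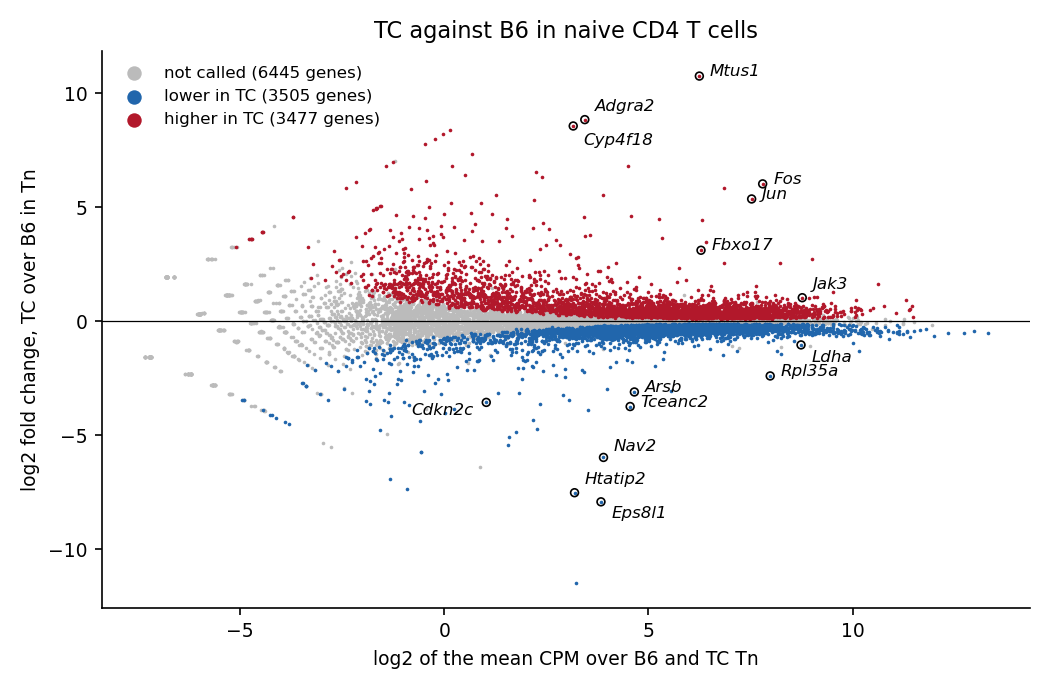
Strain difference in Tn against expression level. Each point is a tested gene, with the log2 of the mean CPM over the 2 groups on the x axis and the log2 fold change, TC over B6, on the y axis; coloured points passed an adjusted p below 0.05. Called genes lie on both sides of 0, 3477 higher and 3505 lower in TC, and the named genes at the edges include Mtus1 at 10.75 and Eps8l1 at −7.93; 143 tested genes with no count in any Tn library are not drawn.

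The largest rises were genes nearly silent in B6 Tn and plainly expressed in every TC library. Mtus1, encoding a microtubule-associated tumour suppressor, was measured at 0, 0.109, 0.110 and 0.107 CPM in B6 and 154, 148 and 153 CPM in TC. That is 6 reads over 4 B6 libraries against 8089 over 3 TC libraries, and the fitted fold of 1725 rests on those 6 reads. Adgra2, an adhesion G protein-coupled receptor, stood at 0.149, 0, 0 and 0 CPM in B6 and 17.9, 24.6 and 22.7 CPM in TC, with reads in a single B6 library and a count ratio of 542 (95% counting interval 185 to 2634). Cyp4f18, a cytochrome P450 that hydroxylates leukotriene B4, was at 0.0990, 0, 0.0549 and 0 CPM in B6 and 24.2, 17.2 and 12.1 CPM in TC, with a ratio of 449.7 (95% counting interval 153 to 2185). All 3 lie on chromosome 8, at chr8:40990914-41133726, chr8:27085583-27123436 and chr8:71988482-72009626 (GRCm38), outside the chromosomes of the 3 intervals, and none of them overlapped between strains.

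Other genes of this kind lay on the interval chromosomes and elsewhere. Irgc1, an immunity-related GTPase gene on chromosome 7 (chr7:24431922-24452297), was measured at 0.594, 0.437, 0.384 and 0.107 CPM in B6 and 43.0, 49.4 and 41.8 CPM in TC. Syt14, a synaptotagmin gene on chromosome 1 (chr1:192891233-193035775), stood at 0.297, 0.0546, 0.0549 and 0.0534 CPM in B6 and 10.3, 10.99 and 9.94 CPM in TC. Emid1, encoding a secreted matrix protein, rose 57.3-fold, from 3.84 ± 1.60 to 228 ± 12.5 CPM (log2 difference 5.84, SE 0.23, adjusted p = 4.29e-09). Gzma, encoding the cytotoxic protease granzyme A, was at 0.891, 0.437, 0.604 and 0.481 CPM in B6 and 31.5, 24.4 and 30.6 CPM in TC and no B6 library reached 1 CPM. The zinc finger gene Tshz3 rose 40.2-fold (log2 difference 5.33, SE 0.40, adjusted p = 3.2e-08). Fos and Jun complete the 10 largest rises and are described with the immediate early genes.

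The largest falls were as complete. BC147527, a protein-coding gene without a named function on chromosome 13 (chr13:120300392-120308779), was at 17.9, 17.8, 19.5 and 19.2 CPM in B6 and at 0 in all 3 libraries of TC. Against a floor of 3 counts over the group, that is at least 330.0-fold lower in TC (adjusted p = 2.03e-11). Eps8l1, an actin-regulatory gene of chromosome 7 (chr7:4460674-4480487), was measured at 24.9, 26.8, 18.7 and 43.5 CPM in B6 and 0.161, 0.0614 and 0.109 CPM in TC. Every TC library held at most 3 reads of it, and no library of a strain came near the other strain. Htatip2, encoding an oxidoreductase (chr7:49759115-49773975), stood at 18.9, 18.5, 18.6 and 16.7 CPM in B6 and 0.107, 0.0614 and 0.109 CPM in TC (log2 difference −7.53, SE 0.26, adjusted p = 4.8e-13). Nav2, a cytoskeletal gene less than 1 Mb from it (chr7:48908716-49610090), fell 63.2-fold to 0.464 ± 0.253 CPM (adjusted p = 3.52e-08).

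The other falls among the 10 largest were smaller and of genes with unlike functions. Bmf, a BH3-only activator of apoptosis, was at 7.68, 2.57, 6.31 and 6.78 CPM in B6 and 0.0537, 0.307 and 0.164 CPM in TC (adjusted p = 0.000227). Tmem221 fell 43.1-fold, RP23-192C21.3 26.2-fold and the zinc finger gene Zbtb8a 20.01-fold, to 0.131 ± 0.0804, 0.357 ± 0.0260 and 0.434 ± 0.0547 CPM. Raver2, an RNA-binding protein gene of chromosome 4, fell 14.8-fold to 1.49 ± 0.272 CPM (adjusted p = 1.35e-06). Ndufs5, a complex I subunit gene, belongs to these falls too, and a near copy of it rose.

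Ndufs5 and its near copy moved in opposite directions. Ndufs5 was measured at 6.24, 6.50, 7.41 and 6.20 CPM in B6 and 0.161, 0.307 and 0.218 CPM in TC. BC002163, a processed pseudogene of it on chromosome 16 (chr16:42955631-42955949), moved the other way, at 0.396, 0.0546, 0.384 and 0.107 CPM in B6 and 5.96, 5.34 and 5.35 CPM in TC. Over the 318 coding bases of Ndufs5 the 2 transcripts differ at 2 positions, T81C and A105G, where Ndufs5 has the first base, the pseudogene the second and positions count from 1 at the Ndufs5 coding start. Bases 61 to 130 of each, from the GENCODE M21 transcripts (GRCm38, coding strand), are shown because these positions, in capitals, are all that tells the reads of this stretch apart.
Ndufs5: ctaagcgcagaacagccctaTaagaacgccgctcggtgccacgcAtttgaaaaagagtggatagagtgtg
BC002163: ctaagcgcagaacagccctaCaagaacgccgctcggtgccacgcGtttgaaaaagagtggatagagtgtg
Summed over the pair, the level was 6.64, 6.56, 7.80 and 6.30 CPM in B6 and 6.12, 5.65 and 5.57 CPM in TC, so the fall of Ndufs5 and the rise of BC002163 nearly cancelled. Rps7 and Gm6472, identical at 99.5% of 582 bases, also moved in opposite directions. Gm6472 rose from 3.18 ± 0.500 to 72.9 ± 4.79 CPM while Rps7 fell 1.55-fold from 1052 ± 76.2 CPM. For Gpi1 and its processed copy Gm1840, identical at 98.7% of 1043 bases, Gm1840 rose from 0.844 ± 0.293 to 20.6 ± 1.04 CPM against a fall of Gpi1 from 419 ± 15.4 to 271 ± 1.96 CPM. In these 2 pairs the rise of the copy was smaller than the fall of the parent gene in CPM. Which strain carries which base was not read from these counts, and how much of each change is reads placed on another copy was not tested.

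Immediate early genes, whose transcripts are induced within minutes of a stimulus without new protein synthesis, included several of the largest rises. Of 29 members of the list tested, 12 rose and 3 fell, with a median log2 fold change of 0.32. Fos, an AP-1 subunit, stood at 6.09, 7.98, 6.53 and 5.88 CPM in B6 and 349, 837 and 128 CPM in TC (log2 difference 6.02, SE 0.69, adjusted p = 3.56e-05). Its partner Jun was at 6.19, 9.12, 9.83 and 9.35 CPM in B6 and 332, 546 and 203 CPM in TC (log2 difference 5.36, SE 0.43, adjusted p = 2.75e-06). All TC libraries were above all B6 libraries for both, and within TC replicate 4 was the lowest. Junb was measured at 142, 128, 144 and 122 CPM in B6 and 1147, 1027 and 523 CPM in TC, again without overlap (adjusted p = 9.63e-06).

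Replicate 4 was the lowest TC library in other members too. Fosb stood at 1.63, 1.86, 1.76 and 2.03 CPM in B6 and 15.1, 118 and 4.26 CPM in TC, so that most of its TC mean came from replicate 2, and the call was lost without that library (adjusted p = 0.104) and by limma voom with mouse as random effect (0.208). Dusp1, a phosphatase that switches off MAP kinases, was at 14.3, 14.5, 13.4 and 12.98 CPM in B6 and 163, 235 and 72.5 CPM in TC (log2 difference 3.48, SE 0.38, adjusted p = 2.5e-05). Ppp1r15a, which directs dephosphorylation of the translation factor eIF2-alpha in stress and is not on the list, was measured at 32.8, 29.7, 37.4 and 32.3 CPM in B6 and 242, 238 and 114 CPM in TC (log2 difference 2.55, SE 0.33, adjusted p = 7.81e-05). Fosb, Dusp1, Ppp1r15a, Nr4a1 and Cd69 were singled out after their values were seen. Every B6 library lay below every TC library for Fosb, Dusp1 and Ppp1r15a. Together Fos, Fosb, Jun, Junb, Dusp1 and Ppp1r15a took 0.0198 ± 0.00123% of counts in B6 and 0.210 ± 0.0987% in TC, at 0.225, 0.3 and 0.105% in the 3 TC libraries. No test was made of this sum, since its genes were picked as rises.

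Immediate early genes tied to receptor signalling were mixed. Nr4a1, an orphan nuclear receptor induced by antigen receptor signals, stood at 82.8, 86.2, 70.4 and 63.7 CPM in B6 and 96.0, 101 and 81.2 CPM in TC, with overlap and no call (adjusted p = 0.0933), although it was called without B6 replicate 2 (0.0428) or TC replicate 4 (0.0388). Cd69, an early surface activation marker, ranged more widely in TC than in B6, at 96.4, 133, 137 and 127 CPM in B6 and 193, 200.2 and 79.5 CPM in TC (adjusted p = 0.43), and was called only when TC replicate 4 was left out (adjusted p = 0.0471). Egr2, another receptor-induced factor, fell 1.59-fold, from 23.6 ± 2.26 to 15.2 ± 1.97 CPM (log2 difference −0.67, SE 0.09, adjusted p = 1.22e-05). Dusp2, a phosphatase of ERK and p38, rose 1.81-fold (log2 difference 0.86, SE 0.09, adjusted p = 1.32e-06) and Myc 1.29-fold (adjusted p = 0.00606). With each of the 7 Tn libraries left out in turn, 10 to 15 members of the list were called higher. The labels give no handling time for the single spleens, so handling and strain cannot be told apart for these genes.

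**Figure D2:**
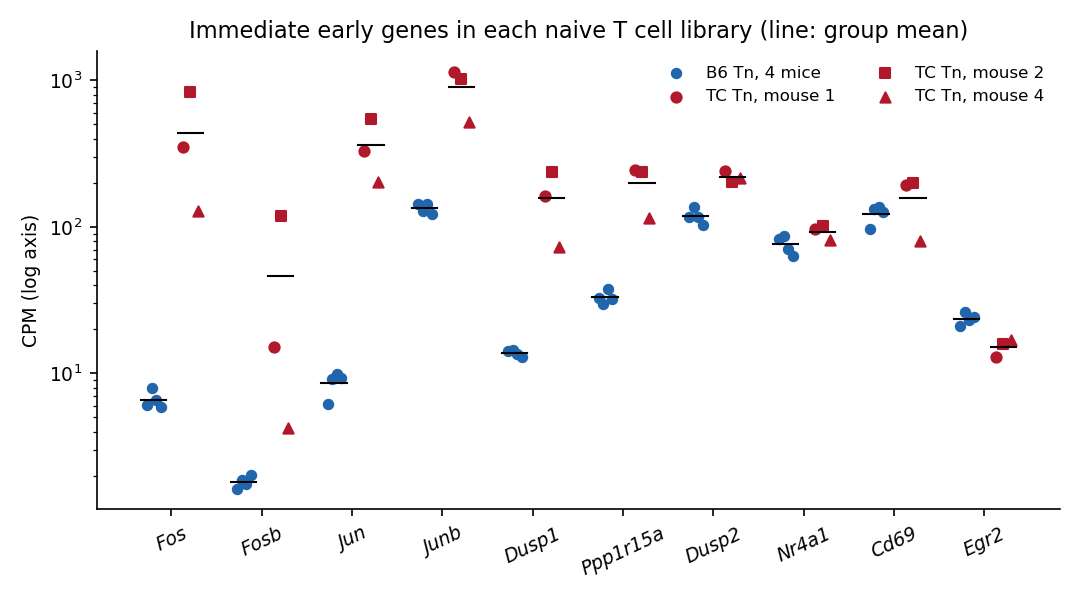
Immediate early genes by library. Points give the CPM of each Tn library on a log axis, blue for B6 and red for TC with a shape for each TC mouse, and short lines the group means. For Fos, Jun, Junb, Fosb, Dusp1 and Ppp1r15a every TC point lies above every B6 point, whereas the Nr4a1 and Cd69 points overlap.

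The promoters of Dusp1 and Ppp1r15a each hold a full cAMP response element, the palindrome TGACGTCA. Both genes rose and hold the element, and no other gene that rose is shown. The 250 bases before the RefSeq start (GRCm38.p6, minus strand, 5′ to 3′) follow, with the element in capitals. They lie at chr17:26508473-26508722 for Dusp1 and chr7:45526269-45526518 for Ppp1r15a.
Dusp1: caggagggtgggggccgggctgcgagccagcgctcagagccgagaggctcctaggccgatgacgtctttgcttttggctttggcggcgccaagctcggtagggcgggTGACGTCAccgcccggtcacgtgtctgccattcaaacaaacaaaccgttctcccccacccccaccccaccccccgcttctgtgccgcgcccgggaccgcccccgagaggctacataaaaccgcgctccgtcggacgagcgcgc
Ppp1r15a: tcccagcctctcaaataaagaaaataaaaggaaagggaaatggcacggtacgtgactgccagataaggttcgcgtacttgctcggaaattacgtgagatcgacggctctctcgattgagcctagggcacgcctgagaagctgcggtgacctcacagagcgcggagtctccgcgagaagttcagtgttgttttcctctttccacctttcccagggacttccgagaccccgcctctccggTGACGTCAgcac
The element spans bases −143 to −136 of Dusp1 and −12 to −5 of Ppp1r15a, counted back from the start. It occurred in 549 of 27025 RefSeq windows of 250 bases before to 50 after a start (2.03%) and in 350 of the 9399 windows of genes tested (3.72%). Of 24 immediate early list members with a window 2 held it (8.33%), 1 of them among the 10 that rose. The match describes letters in a window and says nothing of binding.

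Most genes of the cytosolic ribosome were lower in TC. Cytosolic ribosomal protein genes, which are co-expressed and set much of a cell's translational capacity, were 1 higher and 79 lower of 83 tested, with a median log2 fold change of −0.48. They took 8.87 ± 0.603% of counts in B6 and 6.42 ± 0.319% in TC (8.13 to 9.56% and 6.23 to 6.79% by library, without overlap, exact two-sided permutation p = 0.0571 for 4 against 3, the smallest that 35 arrangements allow). Rplp0, a stalk protein gene, fell from 3334 ± 155 to 2131 ± 112 CPM (log2 difference −0.68, SE 0.08, adjusted p = 2.23e-06). Rpl15 fell 1.49-fold (log2 difference −0.57, SE 0.07, adjusted p = 3.23e-06). The member with the largest fall was Rpl35a, at 412, 441, 456 and 385 CPM in B6 and 87.5, 78.7 and 78.8 CPM in TC (log2 difference −2.41, SE 0.11, adjusted p = 5.14e-10). Many ribosomal protein genes have processed copies in the genome, and the nearest of Rpl35a, Gm10243, is identical at 99.7% of 333 bases.

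Ribosomal protein transcripts often begin with a 5′ terminal oligopyrimidine (TOP) run, the element through which mTOR controls their translation. Short stretches around the RefSeq start of 4 translation genes (GRCm38.p6) are shown, since these genes fell together. A pyrimidine run at the annotated start is in capitals. Whether the transcripts of these cells begin at that run, as a TOP run would require, was not tested. The stretches are Rps6 at chr4:86857352-86857381, Rpl35a at chr16:33056468-33056497, Rpl15 at chr14:18270971-18271000 and the elongation factor gene Eef1a1 at chr9:78481709-78481738.
Rps6: agcggaagtcgggCCTCTTTTTCgtgacgc
Rpl35a: cggggcttgccttCCTCTTTCCgccatctt
Rpl15: tgggagaaagccttCTTCCTTTCCTCTggc
Eef1a1: ctggctccgccctCTTCCCgagggtggggg
A C followed by at least 4 pyrimidines within 2 bases of the start was found in 22 of 60 ribosomal protein genes with a window (36.7%), in 12.2% of all genes tested and in 10.6% of all windows. The 22 ribosomal protein genes with it were all lower in TC, with a median of −0.47, and 37 of the 38 without it were lower, with a median of −0.49. Outside the ribosomal protein list, 27.9% of genes with the run and 27.4% of genes without it were called lower. Starts were taken as annotated, so a gene counted as without the run may still have one at another start. Neither split can therefore say how genes that lack the element differed.

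Other lists of translation and protein turnover also held more lower than higher genes. Translation initiation and elongation factors were 2 higher and 28 lower of 32 tested (median −0.40). The eIF3 subunit genes Eif3m and Eif3e fell 1.54- and 1.63-fold, whereas Eif4a2, an RNA helicase gene, rose from 513 ± 38.4 to 900.0 ± 84.6 CPM (log2 difference 0.78, SE 0.08, adjusted p = 3.97e-07). Mitochondrial ribosomal protein genes were 6 higher and 52 lower of 76 tested (median −0.33), with Mrpl51 1.56-fold lower. Ribosome biogenesis genes were 3 higher and 12 lower of 26 tested (median −0.11), among them Nop10, a snoRNP protein gene, at 1.71-fold and nucleolin, Ncl, at 1.34-fold lower. Proteasome genes were 0 higher and 29 lower of 31 tested (median −0.37). Psma1, of the 20S core, was at 102, 97.7, 104 and 94.5 CPM in B6 and 60.99, 59.1 and 57.3 CPM in TC, and the strains did not overlap (log2 difference −0.78, SE 0.05, adjusted p = 5.28e-09). Psmb2 fell 1.55-fold (adjusted p = 1.08e-07).

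Genes of energy metabolism were lower in the same way. Nuclear genes of oxidative phosphorylation were 1 higher and 63 lower of 72 tested, with a median of −0.45, and took 0.626 ± 0.0203% of counts in B6 and 0.475 ± 0.0110% in TC. Ndufa8, a complex I subunit gene, was measured at 49.7, 48.8, 49.1 and 49.7 CPM in B6 and 31.6, 26.8 and 28.3 CPM in TC (log2 difference −0.80, SE 0.08, adjusted p = 2.14e-07). The spread within each strain was small beside the gap between them. Atp5o of ATP synthase fell 1.497-fold and Sdha, shared by complex II and the TCA cycle, 1.32-fold. Of the 13 protein-coding genes of the mitochondrial genome 7 could be tested, and all 7 were lower, as were 5 tested rRNA and tRNA genes of it. mt-Nd1 stood at 1939, 2492, 2595 and 2531 CPM in B6 and 1454, 1431 and 1350.5 CPM in TC, where B6 replicate 1 was the lowest of its group and still above TC (log2 difference −0.79, SE 0.09, adjusted p = 1.98e-06). mt-Nd6, encoded on the other strand, fell from 7.42 ± 1.97 to 2.77 ± 0.703 CPM.

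Glycolysis genes were 4 higher and 14 lower of 27 tested (median −0.33). Ldha, which converts pyruvate to lactate, was at 532, 577, 606 and 565 CPM in B6 and 303, 280.2 and 265 CPM in TC (log2 difference −1.04, SE 0.08, adjusted p = 1.73e-08), and the lowest B6 library was above the highest TC library. Slc16a1, a lactate and pyruvate transporter gene, fell 1.85-fold from 41.3 ± 2.86 CPM (adjusted p = 1.43e-08). Pdk1, a kinase that holds pyruvate back from the mitochondrion, fell 1.85-fold (log2 difference −0.89, SE 0.09, adjusted p = 7.49e-07), and Hif1a, the hypoxia-responsive regulator of this pathway, 1.44-fold (adjusted p = 0.000487). Slc2a1, encoding the glucose transporter GLUT1, was measured at 47.6, 45.2, 44.8 and 43.5 CPM in B6 and 45.6, 45.0 and 37.2 CPM in TC, overlapped and was not called (adjusted p = 0.307). TCA cycle and pyruvate dehydrogenase genes were 1 higher and 15 lower of 26 tested, with Mdh1, malate dehydrogenase, at 159, 157, 158 and 147 CPM in B6 and 93.4, 88.8 and 99.0 CPM in TC (log2 difference −0.76, SE 0.05, adjusted p = 2.37e-09).

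Side branches of metabolism showed the same direction in most lists. Pentose phosphate genes were 1 higher and 9 lower of 10 tested, with Pgls 1.55-fold and Taldo1 1.40-fold lower. Fatty acid oxidation genes were 3 higher and 12 lower of 22 tested. Acaa2, the thiolase of the last step, fell 1.697-fold and Slc25a20, the carnitine carrier, 1.71-fold. One-carbon and nucleotide synthesis genes were 3 higher and 17 lower of 25 tested, including the purine enzymes Ppat and Impdh2 (1.47- and 1.35-fold lower) and Psat1 of serine synthesis (1.35-fold lower). Antioxidant genes were 2 higher and 15 lower of 24 tested, with Prdx1, a peroxiredoxin gene, 1.80-fold lower at 82.3 ± 2.55 against 144 ± 4.99 CPM (log2 difference −0.84, SE 0.06, adjusted p = 3.58e-09) and Gpx1 1.60-fold lower.

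Amino acid, glutamine and sterol genes gave unlike counts. Slc1a5, a glutamine and neutral amino acid transporter gene of chromosome 7, stood at 138, 168, 161 and 201 CPM in B6 and 62.9, 65.2 and 56.2 CPM in TC (log2 difference −1.48, SE 0.10, adjusted p = 3.73e-08), with each TC library well below the lowest of B6. Glutamine and glutamate genes as a list were 3 higher and 8 lower of 20 tested. Amino acid transport and mTOR genes were 8 higher and 8 lower of 28 tested: Lamtor1, of the lysosomal Ragulator complex, fell 1.53-fold and Slc38a9, the lysosomal arginine sensor, rose 1.504-fold. Fatty acid and cholesterol synthesis genes were 6 higher and 7 lower of 33 tested (median −0.01). Lss, which forms lanosterol, rose from 31.4 ± 2.44 to 57.5 ± 6.21 CPM (log2 difference 0.84, SE 0.07, adjusted p = 9.17e-08).

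**Figure D3:**
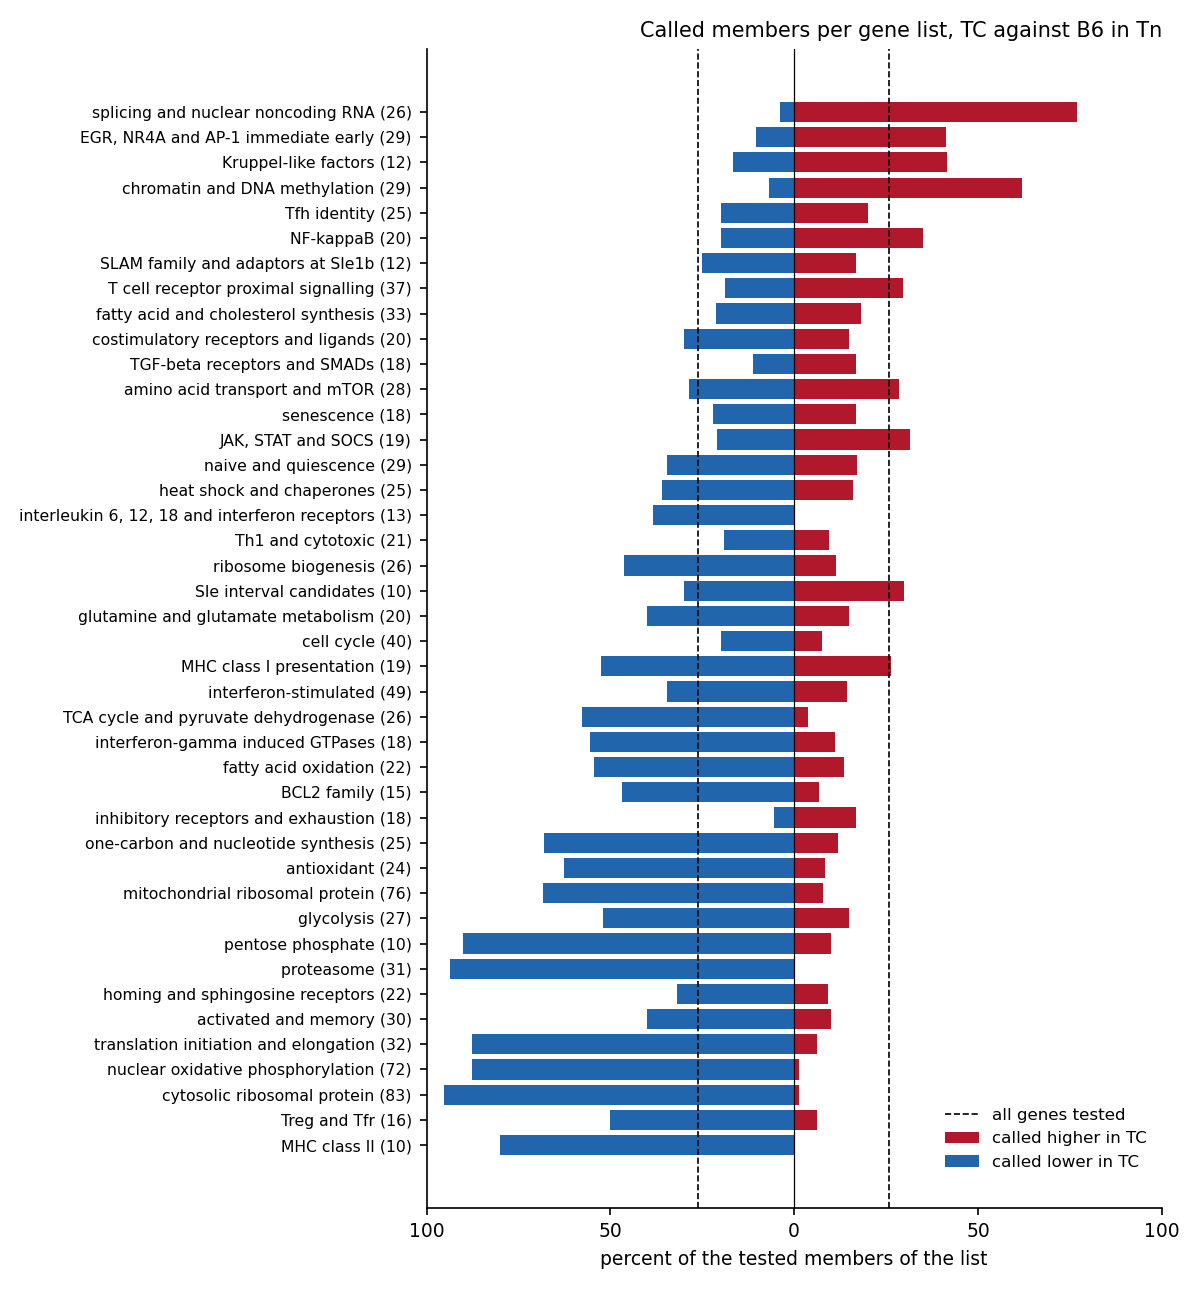
Gene lists in the comparison of TC with B6 in Tn. Bars give the percent of tested members called higher (right) or lower (left) in TC, with dashed lines at the shares over all genes, 25.9% higher and 26.1% lower. Ribosomal protein, proteasome and oxidative phosphorylation lists lie almost wholly on the lower side, and splicing and chromatin lists on the higher side.

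Splicing and chromatin lists held more higher than lower genes. Splicing and nuclear noncoding RNA genes were 20 higher and 1 lower of 26 tested (median 0.51). Srsf5, a splicing factor gene, was at 351, 396, 386 and 398 CPM in B6 and 640.5, 659 and 644 CPM in TC (log2 difference 0.73, SE 0.05, adjusted p = 1.3e-08). Clk4, a kinase of such factors, rose 1.71-fold (log2 difference 0.78, SE 0.06, adjusted p = 1.25e-08). Chromatin and DNA methylation genes were 18 higher and 2 lower of 29 tested (median 0.18). Tet2, which oxidises methylcytosine, was measured at 52.0, 47.6, 47.5 and 52.2 CPM in B6 and 91.8, 101 and 99.2 CPM in TC (log2 difference 0.94, SE 0.09, adjusted p = 3.19e-07), without overlap. The histone methyltransferase gene Kmt2d rose 1.88-fold. After correction for transcript length, 11 chromatin genes were higher and 3 lower, and with GC content as well 10 were higher.

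Several classes of short RNA and gene segments rose. Of 81 snoRNA genes tested 66 were higher in TC and none lower (median log2 fold change 1.34), as were 11 of 14 snRNA genes, 35 of 48 T cell receptor J segments (43.8% of them over 2-fold) and 13 of 25 miRNA genes. The snoRNA and snRNA genes together took 0.00802 ± 0.000481% of counts in B6 and 0.0221 ± 0.00358% in TC. Replication-dependent histone genes, whose transcripts lack a poly(A) tail, were 13 higher and 0 lower of 18 tested; that list was chosen after its values were seen. Hist1h1c, a linker histone gene, stood at 5.35, 6.23, 4.50 and 5.02 CPM in B6 and 28.4, 40.9 and 25.7 CPM in TC (log2 difference 2.55, SE 0.17, adjusted p = 6.96e-09), while the cell cycle list was 3 higher and 8 lower of 40 tested and Mcm2, a replication licensing gene, fell 1.72-fold (log2 difference −0.79, SE 0.05, adjusted p = 1.08e-09). Gm26917, a noncoding locus of chromosome 17, rose from 86.1 ± 26.4 to 509 ± 109 CPM (log2 difference 2.53, SE 0.28, adjusted p = 2.08e-05). Whether the amount of unspliced or unpolyadenylated RNA taken up by the libraries differed between strains was not tested.

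Genes of naive identity moved in both directions, 5 higher and 10 lower of 29 tested, with a median near 0 (−0.08). The strains did not overlap for 10 of the 29 members higher and 9 lower in TC, beside 29.6% higher and 25.4% lower over all genes tested. Klf2 was among those without overlap, though not called, at 354, 342, 342 and 369 CPM in B6 and 513, 696 and 416 CPM in TC. Tcf7, the transcription factor TCF-1, was at 2766, 2401, 2432 and 2338 CPM in B6 and 2389, 2157 and 2469 CPM in TC, overlapped and was not called (adjusted p = 0.183). Il7r overlapped as well (688 ± 37.0 CPM in B6 and 664 ± 85.6 in TC, adjusted p = 0.731). Ccr7, the homing receptor for T cell zones, was measured at 765, 708, 765 and 659 CPM in B6 and 601, 597 and 506 CPM in TC and fell 1.30-fold (adjusted p = 0.00432). Lef1 fell 1.14-fold (adjusted p = 0.0265), a call lost without B6 replicate 1 (0.0689) or TC replicate 2 (0.114). The clearest naive gene to fall was Igfbp4, an IGF-binding protein, at 1518, 1225, 1403 and 1249 CPM in B6 and 741, 722 and 692 CPM in TC (log2 difference −0.94, SE 0.07, adjusted p = 3.2e-08). Pdlim4 fell 1.99-fold, Tgfbr2, the TGF-beta receptor that restrains naive cells, 1.27-fold, and Cd55, a complement regulator, rose 1.49-fold.

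Genes of activated and memory cells were lower rather than higher, 3 higher and 12 lower of 30 tested (median −0.39). Crip1 stood at 153, 128, 149 and 134 CPM in B6 and 79.2, 88.0 and 68.0 CPM in TC and Vim, encoding vimentin, at 421, 361, 366 and 345 CPM in B6 and 226, 237 and 226 CPM in TC, without overlap in either. Il2rb, the interleukin 2 and 15 receptor chain, fell 1.76-fold (log2 difference −0.81, SE 0.12, adjusted p = 4.12e-05). Cxcr5, the follicular homing receptor, fell from 8.74 ± 2.82 to 4.82 ± 0.584 CPM (adjusted p = 0.00281), Bcl6 was not called (33.95 ± 3.52 and 39.4 ± 3.63 CPM, adjusted p = 0.216), and Selplg, encoding the CD162 used for the Tfh gate, fell 1.29-fold (adjusted p = 0.0201), a call lost without B6 replicate 3, TC replicate 2 or TC replicate 4. The Tfh identity list was 5 higher and 5 lower of 25 tested.

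Regulatory T cell genes were lower more often than higher. The list was 1 higher and 8 lower of 16 tested (median −0.52), with summed levels of 264 to 326 CPM in B6 and 198 to 235 CPM in TC. Foxp3, the lineage factor, was at 29.96, 41.5, 34.4 and 37.2 CPM in B6 and 28.5, 23.1 and 24.1 CPM in TC, every TC library below every B6 library (log2 difference −0.53, SE 0.17, adjusted p = 0.0162). That call was lost without TC replicate 2 (adjusted p = 0.0619) or TC replicate 4 (0.0583). Gpr83 fell 1.96-fold (log2 difference −0.97, SE 0.11, adjusted p = 2.38e-06), Tnfrsf18, encoding GITR, 1.92-fold and Capg 2.04-fold. Il2ra was also called lower, whereas the markers Ikzf2 and Nrp1 were not called. Ikzf2 was at 14.02, 17.97, 10.92 and 14.74 CPM in B6 and 16.86, 15.6 and 19.27 CPM in TC. Nrp1 was at 6.64, 7.43, 6.92 and 5.82 CPM in B6 and 10.04, 4.54 and 7.48 CPM in TC. Ctla4, an inhibitory receptor that conventional cells also induce, rose, at 7.68, 18.5, 15.04 and 12.7 CPM in B6 and 47.2, 49.3 and 18.1 CPM in TC (log2 difference 1.48, SE 0.38, adjusted p = 0.0073), though TC replicate 4 lay within the B6 range. In bulk RNA, fewer cells of a type and less RNA per cell cannot be told apart.

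T cell receptor signalling genes were 11 higher and 7 lower of 37 tested. Among the CD3 chains of the receptor complex, Cd3d was measured at 505, 524, 536 and 452 CPM in B6 and 354, 320.3 and 330.3 CPM in TC (log2 difference −0.62, SE 0.07, adjusted p = 2.85e-06) and Cd3g fell 1.35-fold, while Plcg1, the phospholipase downstream, rose 1.35-fold (adjusted p = 3.56e-05). NF-kappaB genes were 7 higher and 4 lower of 20 tested, with the kinase Ikbke 1.59-fold and Nfkbiz 2.24-fold higher. JAK, STAT and SOCS genes were 6 higher and 4 lower of 19 tested. Jak3, the kinase of the common gamma chain, stood at 278, 289.6, 282 and 279.7 CPM in B6 and 609, 535 and 621 CPM in TC (log2 difference 1.03, SE 0.06, adjusted p = 4.51e-10), with both groups tight and far apart. Tyk2, the kinase of interferon and interleukin 12 receptors, rose 1.23-fold.

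Receptors that signal through these kinases were lower more often than higher. Common gamma chain receptor genes were 1 higher and 4 lower of 8 tested, the higher being Il15ra, the interleukin 15 receptor alpha chain (1.26-fold, adjusted p = 0.0127, and 0.133 without TC replicate 4), and interleukin 6, 12, 18 and interferon receptor genes 0 higher and 5 lower of 13 tested. Il12rb1 fell 1.95-fold from 5.67 ± 0.735 CPM, Il10ra 1.37-fold, and Ifngr1 1.64-fold (adjusted p = 0.0177, and 0.0658 without TC replicate 4). Ifngr1 varied widely in B6, at 137, 227, 250.3 and 186 CPM in B6 and 132, 129 and 113 CPM in TC, where the lowest B6 library was just above TC.

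Interferon-stimulated genes, a signature often raised in lupus blood, were 7 higher (14.3%) and 17 lower (34.7%) of 49 tested (median −0.20). Over all genes tested the shares were 25.9% and 26.1%. In the 3 higher of 5 equal bins of mean expression, 33.1 to 35.9% of all genes were called lower, near the share of the list. Isg15, a ubiquitin-like modifier, was measured at 19.8, 21.03, 15.6 and 19.3 CPM in B6 and 12.5, 7.80 and 10.7 CPM in TC (log2 difference −0.90, SE 0.17, adjusted p = 0.000324), and Rtp4, a chaperone of receptor proteins, was lower too (log2 difference −0.58, SE 0.11, adjusted p = 0.000303). The strains did not overlap for either gene. Interferon-gamma induced GTPases were 2 higher and 10 lower of 18 tested: Ifi47 fell 1.48-fold from 341 ± 15.1 CPM, and Gbp8 rose 1.58-fold from 93.2 ± 8.003 CPM.

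Gene families of the Sle1 stretch of chromosome 1 moved in both directions. The p200 family, sensors of cytosolic DNA and related proteins, were 3 higher and 0 lower of 6 tested: Ifi203 stood at 332, 313, 329.7 and 375 CPM in B6 and 502, 500.5 and 539.7 CPM in TC, Mndal rose 1.42-fold and Aim2, which assembles an inflammasome on DNA, 1.51-fold (log2 difference 0.59, SE 0.06, adjusted p = 2.87e-07). These loci hold closely similar paralogs, and how reads were shared among them is not known. A list of SLAM receptors, which tune T and B cell contact, their adaptors and neighbouring genes was 2 higher and 3 lower of 12 tested. Cd84 was at 166, 147, 142 and 147 CPM in B6 and 240.4, 241 and 258 CPM in TC (log2 difference 0.68, SE 0.05, adjusted p = 2.8e-08) and Slamf6 at 202, 203, 205 and 204 CPM in B6 and 276, 264 and 286 CPM in TC (log2 difference 0.40, SE 0.07, adjusted p = 0.000127), both without overlap, whereas Cd48 fell 1.49-fold (log2 difference −0.58, SE 0.05, adjusted p = 8.07e-08). The other members to fall were no SLAM receptors: Copa, a coatomer gene of chromosome 1, fell 1.32-fold and Sh2d1a, the adaptor SAP encoded on chromosome X, 1.38-fold.

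A list of candidate genes for the intervals was 3 higher and 3 lower of 10 tested. Whether each member lies within an interval was not checked. Cdkn2c, a CDK4 and CDK6 inhibitor gene of chromosome 4, was measured at 4.36, 3.39, 3.84 and 3.47 CPM in B6 and 0.322, 0.307 and 0.328 CPM in TC (log2 difference −3.57, SE 0.23, adjusted p = 2.29e-09). Another CDK inhibitor gene not on this list, Cdkn1b, rose 1.48-fold. Coro1a, an actin regulator of T cell survival and migration encoded on chromosome 7, stood at 2528, 2534, 2546 and 2438 CPM in B6 and 1878, 1841 and 1809 CPM in TC (log2 difference −0.48, SE 0.07, adjusted p = 1.5e-05). Atg16l1, an autophagy gene of chromosome 1, rose 1.49-fold. Survival genes moved too: Bcl2, the chief anti-apoptotic gene of naive cells, had levels of 369, 292, 318 and 292 CPM in B6 and 169.7, 184 and 162 CPM in TC (log2 difference −0.92, SE 0.11, adjusted p = 1.22e-05), and its antagonist Bcl2l11, encoding BIM, rose 1.33-fold. The BCL2 family list was 1 higher and 7 lower of 15 tested. GIMAP genes, GTPases needed for naive T cell survival, were 4 higher and 4 lower of 8 tested, Gimap7 falling 2.12-fold and Gimap6 rising 1.47-fold.

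Most MHC class II genes were lower, and class I genes were mixed. MHC class I presentation genes were 5 higher and 10 lower of 19 tested, with the immunoproteasome genes Psmb8 and Psmb10 1.35- and 1.38-fold lower. MHC class II genes were 0 higher and 8 lower of 10 tested (median −1.42), at summed levels of 105 to 122 CPM in B6 and 86.6 to 98.98 CPM in TC. H2-DMa, a peptide exchange factor gene, was at 39.3, 37.8, 38.0 and 33.4 CPM in B6 and 24.4, 23.9 and 20.9 CPM in TC. Cd74, the invariant chain gene, was measured at 14.96, 13.2, 14.6 and 7.32 CPM in B6 and 3.87, 2.76 and 2.35 CPM in TC, with B6 replicate 4 the lowest of its group. Cd74 is chiefly a gene of B cells and other presenting cells, whose defining markers Ms4a1, Pax5, Csf1r and Clec9a were at most 0.165 CPM in all 7 libraries.

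Markers of other cell types were counted next. B cell markers were 0 higher and 2 lower of 11 tested, at summed levels of 577 to 600.5 CPM in B6 and 672 to 736 CPM in TC, without overlap. Most of that sum was Ighm, the IgM heavy chain gene, at 559, 546, 558 and 582 CPM in B6 and 698, 644 and 706 CPM in TC, without overlap, narrowly not called (adjusted p = 0.0531) and called as higher by DESeq2 (0.0447) and with only Tn libraries (0.000358). Plasma cell markers were 1 higher and 1 lower of 10 tested. Igha, an immunoglobulin heavy chain gene, stood at 4.26, 3.66, 1.10 and 0.481 CPM in B6 and 22.7, 19.7 and 8.63 CPM in TC (adjusted p = 0.0238), a call lost without B6 replicate 3 or 4 or TC replicate 1 or 2. Immunoglobulin genes took 0.0617 ± 0.00113% of counts in B6 and 0.0767 ± 0.00351% in TC. Of myeloid markers 2 rose and 3 fell of 8 tested: Cd68, a lysosomal glycoprotein gene, was at 1.24, 1.80, 1.702 and 1.82 CPM in B6 and 8.16, 8.47 and 3.55 CPM in TC, and Lyz2, encoding lysozyme, fell to 0 in 2 TC libraries, a call lost without TC replicate 2 or 4. Their summed level was 46.4 to 57.0 CPM in B6 and 41.2 to 48.1 CPM in TC. Of NK and innate-like markers, summing to 27.6 to 31.9 CPM in B6 and 59.3 to 73.0 CPM in TC, Klrd1 (2.29-fold) and Gzma rose, while Ncr1 had no count in any library and Klrb1c and Zbtb16 were at most 0.492 CPM. Trdc, the constant gene of the delta receptor chain, was at 12.4 ± 0.891 CPM in B6 and 11.2 ± 1.18 in TC (adjusted p = 0.883). Cd8b1 fell 1.63-fold from 17.8 ± 1.31 CPM, and Cd8a was at most 0.644 CPM. Rora, a factor of innate-like and memory cells, rose from 9.25 ± 1.18 to 21.96 ± 0.494 CPM. The part of other cells in these results was not tested.

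Of the chromosomes that carry the intervals, 1 and 7 held more of the large differences, and 4 did not. Of 2622 genes tested on chromosomes 1, 4 and 7 together, 267 were called and over 2-fold (10.2%), against 704 of 10525 on the other chromosomes (6.69%). The 267 made up 24.9% of all such genes. A further 280 tested genes had no position, and 100 of them were called and over 2-fold (35.7%), 9.34% of all such genes. By chromosome the share was 12.1% on chromosome 1, 11.9% on chromosome 7 and 5.99% on chromosome 4. In windows of 10 Mb with at least 20 tested genes, 12 of 212 reached at least 2 times the share over all genes, and 6 of these were among the 40 windows of chromosomes 1, 4 and 7. The highest shares were 26.8% between 40 and 50 Mb of chromosome 7 (30 of 112 genes), 25.6% between 20 and 30 Mb of chromosome 13, where the histone cluster lies, and 25% between 190 and 200 Mb of chromosome 1. The bounds of the intervals are not in the labels and were not used.

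Named genes of these chromosomes differed strongly. On chromosome 7, Dhdh (chr7:45470987-45488805), encoding a dihydrodiol dehydrogenase, was measured at 1.93, 1.69, 1.32 and 1.07 CPM in B6 and 21.8, 19.96 and 19.7 CPM in TC (log2 difference 3.72, SE 0.13, adjusted p = 9.91e-13), and Htatip2, Nav2 and Ldha lie within the same 10 Mb. Fbxo17, an F-box gene at chr7:28716804-28738144, stood at 16.5, 16.9, 16.03 and 14.2 CPM in B6 and 137, 136 and 148 CPM in TC (log2 difference 3.11, SE 0.09, adjusted p = 3e-13). On chromosome 1, Gm10521, a noncoding locus beside the SLAM cluster (chr1:171895664-171898237), rose 3.84-fold. On chromosome 4, Tceanc2 (chr4:107134155-107179116), a gene related to transcription elongation factors, was measured at 46.0, 40.9, 44.3 and 43.2 CPM in B6 and 3.22, 3.75 and 3.003 CPM in TC (log2 difference −3.75, SE 0.09, adjusted p = 4.69e-15), and Rgs3, a brake on G protein signalling, rose 2.52-fold (log2 difference 1.33, SE 0.06, adjusted p = 4.56e-11). None of these 5 genes overlapped between strains.

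Transcript length moved with the direction of change. Across the 13147 tested genes with a GENCODE M21 length (97.9%), the median log2 fold change was −0.202, −0.105, −0.029, 0.035 and 0.118 over 5 equal bins of genes from the shortest to the longest. In the shortest bin 17.9% of genes were called higher and 35.8% lower, and in the longest 36.3% and 13.1%. Spearman's rho over these genes, which share the 7 libraries, was 0.192, and that with transcript GC content 0.02. Ribosomal protein mRNAs are short and those of chromatin regulators long. With a length correction chosen after seeing the data, 79 ribosomal protein genes were lower (median −0.38), 58 oxidative phosphorylation genes (median −0.33) and 23 proteasome genes (median −0.28). The part of RNA integrity or library preparation in the length relation was not tested.

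**Figure D4:**
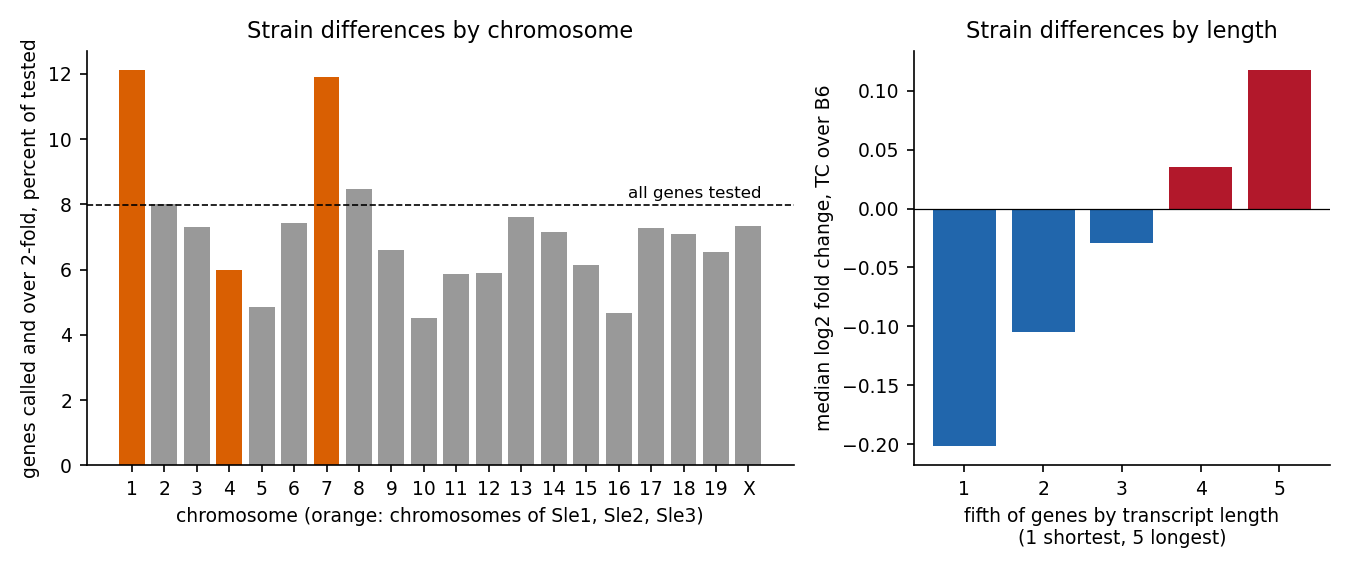
Strain difference by chromosome and by transcript length. The left panel gives, per chromosome, the percent of tested genes called and over 2-fold (orange for the chromosomes of the intervals, dashed line for all genes at 7.98%), and the right panel the median log2 fold change in 5 bins of transcript length. Chromosomes 1 (12.1%) and 7 (11.9%) stand highest of those drawn, and the medians climb from −0.202 to 0.118 with length.

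The strain difference in Tn was largely that of Tfh cells from the same mice. Of the 6982 genes called in Tn, 5072 were also called the same way in Tfh, 50 the other way and 1860 not at all. The 5072 made up 72.6% of the genes called in Tn and 76.1% of the 6669 called in Tfh. The difference of the strain effects, tested directly, was called for 312 of 13427 genes (2.32%), 184 with a more positive effect in Tn and 128 with a more negative one. With mouse as a block, since each mouse gave both libraries, the counts were 736, 434 and 302. The total of 312 fell by over 1.5 times when a single library was left out: Tn replicates 2 (204) and 3 (199) of B6, Tn replicates 1 (203) and 2 (159) of TC, or Tfh replicates 1 (205) and 4 (174) of TC. Among the 312, 103 were called only in Tn, 45 only in Tfh, 115 in both the same way and 49 in both in opposite ways. Ribosomal protein genes had a median of −0.48 in Tfh and 1 called difference, and oxidative phosphorylation genes −0.42 and none. The mitochondrial genome median was −0.13 in Tfh against −0.64 in Tn, with mt-Nd1 called different (−0.53, SE 0.13, adjusted p = 0.0367).

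The genes with the smallest p for this difference had unlike effects in Tn and Tfh. Arsb, the lysosomal arylsulfatase B gene on chromosome 13, stood at 46.6, 40.2, 50.7 and 42.8 CPM in B6 and 5.32, 5.46 and 5.24 CPM in TC in Tn (log2 difference −3.11, SE 0.10, adjusted p = 4.57e-13) and had a log2 fold change of −0.73 in Tfh, a difference of effects of −2.38, SE 0.14, adjusted p = 1.3e-08. Myo6, a myosin motor gene, fell 3.94-fold in Tn and had a log2 fold change of 0.41 in Tfh (adjusted p = 0.0406), a difference of −2.38, SE 0.19, adjusted p = 7.71e-07. Pglyrp1, a peptidoglycan recognition protein gene, fell from 9.47 ± 1.53 to 0.769 ± 0.0795 CPM in Tn against −0.75 on the log2 scale in Tfh. Inafm2 rose 5.03-fold in Tn and 1.58-fold in Tfh, with a difference of 1.67, SE 0.10, adjusted p = 2.93e-08. Egln3, an oxygen-sensing prolyl hydroxylase gene, rose 2.42-fold in Tn and had a log2 fold change of −0.84 in Tfh (adjusted p = 1.04e-06). Igsf23 rose 1.27-fold in Tn and 7.80-fold in Tfh, a difference of −2.62, SE 0.15, adjusted p = 1.3e-08.

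Lymphocyte genes were among the differences. Bcl2 had a log2 fold change of −0.92 in Tn and of 0.07 in Tfh, a difference of −0.99, SE 0.16, adjusted p = 0.00374. Igfbp4 and Gpr83, both lower in TC Tn, had log2 fold changes of 0.66 and −0.12 in Tfh (differences −1.60 and −0.86). Dusp2 rose in Tn (0.86) and was at 0.09 in Tfh (difference 0.77, SE 0.13, adjusted p = 0.00349). Gzma rose in both, by 5.52 and 2.57 (difference 2.95, SE 0.36, adjusted p = 9.6e-05). For Fos, Jun and Ldha the difference of effects was not called (adjusted p = 0.964, 0.586 and 0.996): Fos rose 75.5-fold, Jun 79.9-fold and Ldha fell 2.08-fold in Tfh.

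**Figure D5:**
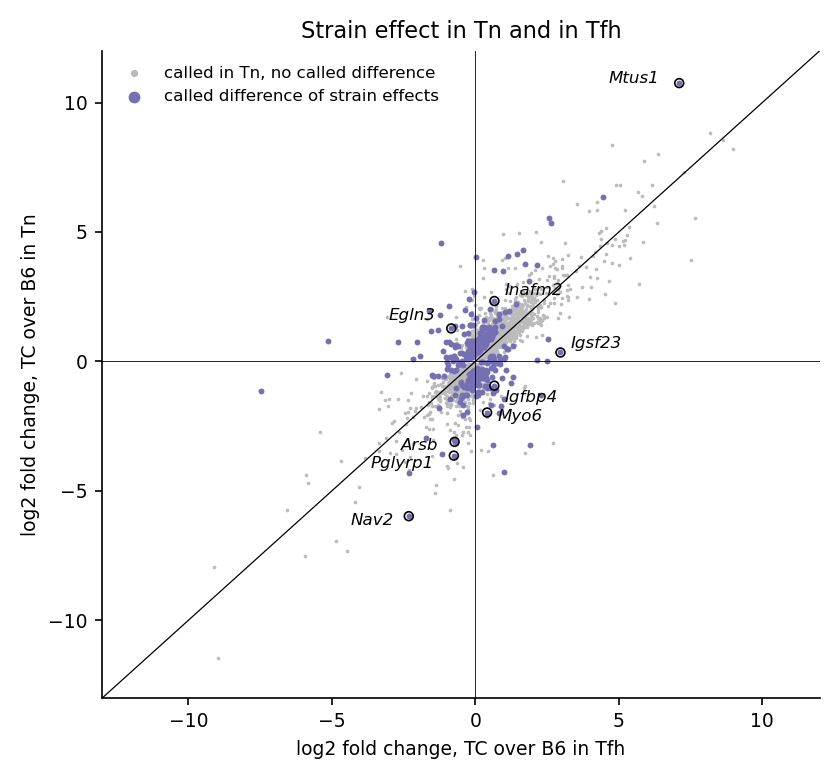
Strain effect in Tn and in Tfh. Each point is a tested gene, with the log2 fold change TC over B6 in Tfh on the x axis and in Tn on the y axis; purple points are the 312 genes whose effects were called different and grey points other genes called in Tn. Arsb lies off the diagonal, at −3.11 in Tn and −0.73 in Tfh.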

How the data were processed

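RNA of sorted spleen CD4 T cells was sequenced, and the 7 Tn libraries (4 B6, 3 TC) held 16285700 to 20191558 counts. The deposited table holds whole-number read counts, 1 line per gene symbol and 1 column per library, and no column was left unused. Per the submitters' processing notes the authors used STAR 2.7 and DESeq2 with mm10, and per the labels' protocols RNeasy and TruSeq Stranded kits. For the counter, its strand setting and the annotation nothing is given in the sources used here, so counts of overlapping, antisense and closely similar genes are uncertain. TC reads that differ from the B6-strain reference were not corrected for it.

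Low genes were left out by filterByExpr over all 14 libraries (minimum count 10). TMM factors and robust quasi-likelihood fits came from edgeR 4.0.16 (4 group means over 14 libraries, no block) in R 4.3.3. Tests were Benjamini-Hochberg adjusted over 13427 genes and called below 0.05. The contrasts were TC against B6 in Tn, the same in Tfh, and their difference. CPM were computed from the counts and library totals. A floor of 3 counts and exact 95% intervals cover counting error only. Shares of counts were compared by an exact permutation test. Positions and lengths came from GENCODE M21 (GRCm38, the build of mm10): 24746 symbols matched directly, 614 by synonym, 1273 not and 50 ambiguously. Promoters came from RefSeq (GRCm38.p6). The fit was tested on simulated data.

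The text names the 10 largest rises and falls (at least 5 CPM, no overlap, no receptor segments, Gm-numbered, Rik, pseudogene or sort genes), up to 4 called members per list and per interval chromosome with the smallest adjusted p, the 6 genes with the smallest p for the difference from Tfh, and fixed sort and helper genes; some genes the rule names are not reported here. Members, lists and tests were chosen with earlier results of these data known. Tn and Tfh libraries of a mouse share a number, and their deviations from group means correlated at 0.0395 to 0.299. TC and B6 numbers name different mice (−0.0634 to −0.00624). Within groups, libraries differed by more than sampling noise (chi-square per degree of freedom 5.31 to 12.5). Alternatives were DESeq2 1.42.0, limma 3.58.1 voom, RLE and upper-quartile factors, TMM without ribosomal, receptor and mitochondrial genes, a count minimum of 50 or none, a fold above 1.5, only Tn libraries, blocks, and each library left out. Corrections for transcript length, with and without GC (splines of 5 degrees of freedom), were added after seeing the data.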

Additional observations from a re-analysis of the deposited data

Results flagged for a closer look

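In groups of 4 B6 Tn libraries, a single library lay apart from the other 3 (Dixon's test at the 95% level) for 12 of 161 measures, where chance gives about 1 in 20. Replicate 4 was the lowest for Htatip2 (16.7 CPM), Coro1a (2438.5 CPM) and Mdh1 (147 CPM) and the highest for Gbp8 (105 CPM) and Myc (98.9 CPM). Replicate 1 was the lowest for Mtus1 (0 CPM) and mt-Nd1 (1939 CPM) and the highest for Adgra2 (0.149 CPM) and Syt14 (0.297 CPM). Replicate 3 was the lowest for Cd44 (21.03 CPM) and the highest for Zbtb8a (9.55 CPM) and Impdh2 (116 CPM). In each of these genes but Cd44 and Myc the library still lay on its own strain's side of TC. Groups of 3 TC libraries are too small for this test.

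For 32 of the 153 genes named, the strain effect in Tn differed from that in Tfh by the edgeR test of the difference. The values are log2 fold changes in Tn minus those in Tfh. The effect was the more positive in Tn for Mtus1 (3.651), Gzma (2.953), Tshz3 (2.705), Klrd1 (2.502), Cd68 (2.368), Egln3 (2.115), Syt14 (1.892), Inafm2 (1.668), Dhdh (1.592), Fbxo17 (1.244), Gm10521 (0.778), Dusp2 (0.770), Rgs3 (0.646) and Lss (0.491). It was the more negative in Tn for Nav2 (−3.658), Pglyrp1 (−2.891), Igsf23 (−2.620), Cdkn2c (−2.398), Arsb (−2.383), Myo6 (−2.383), Zbtb8a (−2.023), Cd74 (−1.642), Igfbp4 (−1.598), Bcl2 (−0.987), Gpr83 (−0.856), Capg (−0.744) and Cd8b1 (−0.726). Smaller values in that direction were those of Egr2 (−0.545), mt-Nd1 (−0.527), Slc16a1 (−0.372), Psat1 (−0.298) and Mcm2 (−0.277). Of the 32, 17 lost the call under at least 1 alternative, among them Capg, Cd74, Cd8b1, Egr2, Klrd1, Lss, Mcm2, Psat1, Slc16a1, Syt14 and mt-Nd1 with single libraries left out.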

How the results depend on the processing

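The count of genes called higher was 3026 to 3356 and lower 2973 to 3460 when single libraries were left out, and over 2-fold 973 to 1118. Testing for a fold above 1.5 left 611 higher and 198 lower, 651 over 2-fold (406 on chromosomes other than 1, 4 and 7), 5 immediate early genes higher, 2 oxidative phosphorylation, 2 ribosomal protein and 1 proteasome gene lower, 2 chromatin and 2 splicing genes higher, and 39 differences from Tfh (28 positive, 11 negative). At a count minimum of 50, 555 genes were over 2-fold, 163 on chromosomes 1, 4 and 7 and 360 elsewhere. TMM without ribosomal, receptor and mitochondrial genes gave 2993 higher and 4103 lower, and 235 negative differences from Tfh. A replicate block by number, in which same-numbered TC and B6 mice are unrelated, gave 3223 higher and 3021 lower.

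Differences from Tfh numbered 533 by DESeq2 (266 negative), 580 by voom with mouse as random effect (337 positive, 243 negative) and 736 with the replicate block by mouse (434 and 302). With single libraries left out they were 159 to 344, of which 85 to 190 were positive and 74 to 158 negative. Chromatin genes higher were 11 with the length correction and 10 with length and GC. Cd4, never called, turned from −0.02 to 0.0025 at a count minimum of 50, 0.0132 with the replicate block by number and 0.0394 with length and GC correction, and Il7r, also never called, ranged from −0.1854 to 0.0033 (without TC replicate 2) with single libraries left out. The replicate block by number lost the calls of Ctla4 (adjusted p = 0.158), Fosb (0.114), Ifngr1 (0.113), Myc (0.0937) and Il15ra (0.0701) and gained Nr4a1 (0.0027) and Ighm (0.00217). Voom lost Igha (0.0903) and Lyz2 (0.0697), the absence of a filter Foxp3 (0.0513), Selplg (0.073) and Lyz2 (0.0501), and length and GC correction Lef1 (0.0551) and Selplg (0.0959). Ighm was also called by DESeq2, by voom, with only Tn libraries, at a count minimum of 50 and with both length corrections (adjusted p = 0.000358 to 0.0447). Pdcd1 was called by DESeq2 (0.0202), in only Tn libraries (0.0251), with TMM without ribosomal, receptor and mitochondrial genes (0.0422) and without B6 replicate 4 (0.0498). The cause was not tested for any of these changes; fewer genes were tested at a count minimum of 50. Of 2905 values for the 153 named genes under alternatives, 2788 kept direction and side of the threshold, 98 lost it (69 under the fold of 1.5), 15 gained it and 4 changed sign. The median over all genes moved by less than 0.1 on the log2 scale under every setting run. With 3 counts or fewer over the libraries of a group, a low level cannot be told from absence.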

Other observations

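Counts of other gene groups follow, beside 25.9% higher and 26.1% lower over all genes tested. Heat shock and chaperone genes were 4 higher and 9 lower of 25 tested, and homing and sphingosine receptor genes 2 higher and 7 lower of 22 tested. Costimulatory genes were 3 higher and 6 lower of 20 tested, inhibitory receptor and exhaustion genes 3 higher and 1 lower of 18 tested, and genes of Th1 and cytotoxic cells 2 higher and 4 lower of 21 tested. Senescence genes were 3 higher and 4 lower of 18 tested and TGF-beta receptor and SMAD genes 3 higher and 2 lower of 18 tested. Among small families, Kruppel-like factors were 5 higher and 2 lower of 12 tested, Schlafen genes, tied to T cell quiescence, 1 higher and 4 lower of 8 tested, and Ly6 surface proteins 1 higher and 3 lower of 6 tested.

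Of 84 T cell receptor V segments tested 0 were higher and 5 lower in TC (5.95% lower, against 26.1% of all genes), and of 48 J segments 35 were higher and 0 lower. T cell receptor genes as a class took 0.351 ± 0.00750% of counts in B6 and 0.320 ± 0.00769% in TC. The share of genes called rose with level, from 23% in the lowest to 67.9% in the highest of 5 equal bins of mean expression, whereas the share called and over 2-fold fell from 20.1% to 1.41%.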
